A study of Mus musculus with 29 samples.

Results

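Intermittent fasting on chow was followed in the liver and the hippocampus of mice kept alike, and the comparison asks where the fasting change of the liver differed from that of the hippocampus and which genes changed alike in each. The measure is the tissue-by-fasting interaction on log2(FPKM + 1), that is the liver change (CC-IF liver minus CC liver) minus the hippocampal change (CC-IF hippocampus minus CC hippocampus). It was read over the 9939 of 24346 genes with a mean of at least 1 FPKM in each tissue, and over 15 of the 29 libraries of the series. The mean for this filter was taken over all libraries of a tissue, also those outside the 15. FPKM is the number of sequenced fragments scaled to transcript length and library size. The lowest mean kept was that of Slc37a1 (1.00 FPKM) and the highest left out that of A430105I19Rik (0.998 FPKM). Male C57BL/6J mice, all fed a high-fat diet for 10 weeks beforehand, then spent 4 weeks on chow with intermittent fasting (CC-IF) or on chow alone (CC), so the CC mice too had been made obese by diet before the switch. There were 4 CC-IF livers, 4 CC livers, 3 CC-IF hippocampi and 4 CC hippocampi. The sources used here do not give the fasting schedule on chow, the fed or fasted state on the last day or the hour of tissue collection, so a lasting effect of the regimen, the last meal and the phase of the clock cannot be told apart. Libraries are named by the index their columns carry, from 0, and an index does not tie a liver to a hippocampus.

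In the liver, fasting is known to bring in fatty acids that activate the nuclear receptor PPAR alpha, which turns on fatty acid oxidation, while the sterol- and insulin-driven programmes of lipid synthesis recede. Feeding time also sets the phase of the liver's circadian clock, a loop in which CLOCK and BMAL1 (Arntl) activate the Per, Cry and Nr1d genes that repress them. Brain tissue draws on ketone bodies made by the liver during fasting, and its clocks are known to follow meals less closely than the liver's does. The endoplasmic reticulum (ER) folds secreted and membrane proteins with chaperones that are induced through the transcription factors ATF6 and XBP1 when the folding load is high.

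Most defining markers followed the tissue labels. Snap25 and Slc17a7, which neurons use to release and load transmitter, were listed at 0 in all 8 chow livers, and Apob of hepatocytes stood at 0 to 0.00622 FPKM in CC-IF hippocampi and 0 to 0.00897 FPKM in CC hippocampi. Alb (albumin) was listed at 0 in 7 of the 8 chow livers and at 38834 FPKM in CC liver 1, so a listed 0 in this table can be a failed estimate. Choroid plexus tissue showed in CC-IF hippocampus 2 and CC hippocampus 2, where Ttr, its main secreted protein, had 957 and 1615 FPKM, against 14.2 to 74.1 FPKM in the other 5 hippocampi. Estimated depths were 11.9 to 15.4 M (mega) fragments for the livers and 12.8 to 38.6 M for the hippocampi.

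Promoters are shown for 6 genes on which the comparison turns: 4 ER chaperones, which were lower on CC-IF in liver and by smaller amounts in hippocampus, and 2 clock repressors, which were higher in each. The sequences are RefSeq's on GRCm38.p6, 250 bases before to 50 bases after the start of transcription, 5′ to 3′ on the gene's strand. Where a gene has several starts, a motif in any of their windows counted, and the window shown is the first that holds it. The Per1 window lies inside the gene, which runs from 69095108 to 69109965 on chromosome 11. Capitals in the first 4 mark the ER stress element, CCAAT and CCACG with 9 bases of any kind between them, searched on both strands and known to be bound by NF-Y together with ATF6. Capitals in the last 2 mark the E-box CACGTG, known to be bound by CLOCK and BMAL1; the window of Calr holds those letters too, left in lower case. The windows are chr2:34771840-34772139 (Hspa5, plus strand), chr10:86705395-86705694 (Hsp90b1, minus), chr8:84846882-84847181 (Calr, minus), chr12:17266339-17266638 (Pdia6, plus), chr3:95882179-95882478 (Ciart, minus) and chr11:69098699-69098998 (Per1, plus).
Hspa5: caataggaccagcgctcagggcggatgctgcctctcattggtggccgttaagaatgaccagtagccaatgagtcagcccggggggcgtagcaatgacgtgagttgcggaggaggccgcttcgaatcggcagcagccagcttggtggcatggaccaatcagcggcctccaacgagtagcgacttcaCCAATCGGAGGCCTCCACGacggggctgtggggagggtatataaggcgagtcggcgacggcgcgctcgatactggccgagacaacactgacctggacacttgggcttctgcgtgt
Hsp90b1: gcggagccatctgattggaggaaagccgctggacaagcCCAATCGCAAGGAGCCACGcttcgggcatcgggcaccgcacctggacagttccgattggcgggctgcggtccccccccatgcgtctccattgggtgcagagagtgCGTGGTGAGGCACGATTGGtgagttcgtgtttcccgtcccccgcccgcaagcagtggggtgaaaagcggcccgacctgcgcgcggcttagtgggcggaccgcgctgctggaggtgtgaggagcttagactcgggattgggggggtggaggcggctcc
Calr: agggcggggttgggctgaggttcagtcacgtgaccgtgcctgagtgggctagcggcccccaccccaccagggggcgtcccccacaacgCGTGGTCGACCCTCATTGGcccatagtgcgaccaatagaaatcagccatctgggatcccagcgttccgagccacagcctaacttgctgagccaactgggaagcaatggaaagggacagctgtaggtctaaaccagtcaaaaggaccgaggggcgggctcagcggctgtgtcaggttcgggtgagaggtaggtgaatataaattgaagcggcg
Pdia6: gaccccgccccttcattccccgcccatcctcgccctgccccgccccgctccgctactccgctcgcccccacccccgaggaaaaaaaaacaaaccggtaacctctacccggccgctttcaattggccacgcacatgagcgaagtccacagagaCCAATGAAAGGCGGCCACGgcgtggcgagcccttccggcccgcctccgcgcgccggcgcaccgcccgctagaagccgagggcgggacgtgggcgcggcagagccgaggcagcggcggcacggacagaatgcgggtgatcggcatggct
Ciart: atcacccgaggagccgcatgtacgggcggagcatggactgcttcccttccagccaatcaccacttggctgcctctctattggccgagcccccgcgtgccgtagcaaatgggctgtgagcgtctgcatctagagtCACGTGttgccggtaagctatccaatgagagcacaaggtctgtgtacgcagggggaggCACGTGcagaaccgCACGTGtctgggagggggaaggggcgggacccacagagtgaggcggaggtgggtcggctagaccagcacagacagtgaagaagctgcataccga
Per1: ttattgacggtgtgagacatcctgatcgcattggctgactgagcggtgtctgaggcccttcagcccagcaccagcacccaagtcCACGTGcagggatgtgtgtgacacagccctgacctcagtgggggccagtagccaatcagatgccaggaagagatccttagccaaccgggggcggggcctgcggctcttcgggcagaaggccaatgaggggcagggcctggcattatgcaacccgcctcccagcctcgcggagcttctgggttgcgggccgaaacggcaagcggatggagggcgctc

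The ER stress element was found in 37 of the 27025 genes with a promoter in the table (0.137%) and in 9 of the 40 kept ER genes with one (22.5%). These 9 were Hspa5, Hsp90b1, Calr, Canx, Pdia6, Creld2, Dnajc3, Syvn1 and Derl3. All 9 fell in liver, with a median change of -2.05, and 5 of them were lower in hippocampus at an unadjusted p under 0.05, with a median of -0.43. Of the 31 ER genes whose windows lacked these letters, 24 fell in liver (median -0.84) and 7 were lower in hippocampus at an unadjusted p under 0.05 (median -0.09). Of all kept genes, 10.8% fell in liver and 5.41% were lower in hippocampus at that p. The E-box was found in 8.09% of all genes with a promoter, in 12.8% of the kept genes with one and in 5 of 40 ER genes (12.5%). It was in 3 of 9 clock repressors (Ciart, Per1 and Cry1), with 3 matches in Ciart, and in 5 of 17 clock activators and outputs (29.4%). Of these clock genes Ciart, Per1, Tef, Tspan4, Coq10b and Lonrf3 rose in liver. Tars fell there (-1.38, adjusted p = 0.000137 in limma), and Cry1 did not pass (0.03, adjusted p = 0.945). The motifs overlapped in 0 of 32851 promoters. A match is a description of the window, not of a bound site.

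The chow fasting change was larger and touched more genes in liver than in hippocampus. In limma with Benjamini-Hochberg adjustment at 0.05, 2614 of 9939 genes (26.3%) passed in liver, 1540 higher (15.5%) and 1074 lower (10.8%). In hippocampus 4 genes passed (0.0402%), all higher: Cirbp, Rbm3, Etnppl and Dbp. At an unadjusted p under 0.05, 858 genes (8.63%) were called in hippocampus, 320 higher (3.22%) and 538 lower (5.41%). Without CC hippocampus 2 the lower ones numbered 1195, so the share of all genes moves with the libraries used. Shares set beside list counts below are those of the main fit, also where the count of an alternative follows. The median size of the change was 0.20 in liver and 0.07 in hippocampus on the log2 scale, with median standard errors of 0.11 and 0.09. With the library index as a block, which paired the hippocampal libraries of both regimens, 2 genes passed in hippocampus, Cirbp and Rbm3. The count was 1 without CC-IF hippocampus 1, 2 without CC-IF hippocampus 0, CC hippocampus 1 or CC hippocampus 3, and 8 without CC hippocampus 2. Averaged over the tissues, 1727 genes (17.4%) passed.

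The difference itself, tested as the interaction, passed for 1538 genes (15.5%), of which 981 changed more upward in liver (9.87%) and 557 more downward (5.6%). After each library was scaled to the same median within its tissue the split was 902 and 752, and after quantile normalization 872 and 783. Of the 1538 genes, 1423 (92.5%) also passed in liver alone and 1487 (96.7%) had the larger change in liver. In 1007 (65.5%) the liver and hippocampal changes had opposite signs, against 47.3% of all genes. A call on the difference favours genes of opposite sign, so this share is not a count of reversals. In 273 of the 1538 the interaction was at least 1 in size. Leaving out CC-IF hippocampus 0 gave 1054 genes and leaving out CC liver 3 gave 1826, the lowest and highest of 15 such fits.

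**Figure D1:**
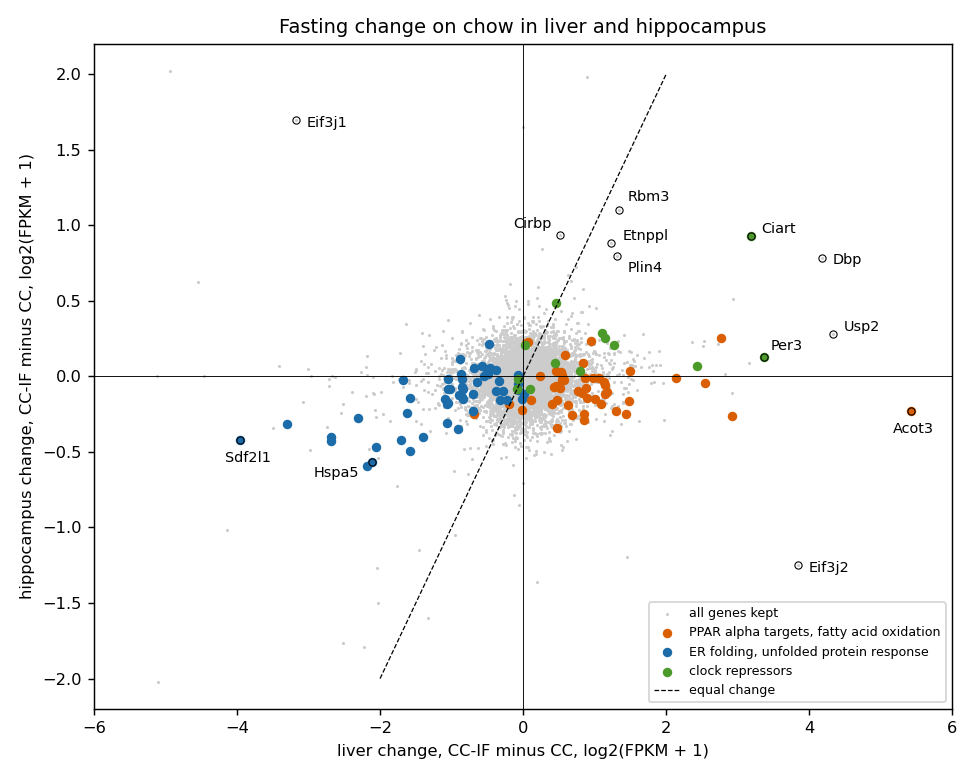
Fasting change on chow in liver (horizontal axis) and hippocampus (vertical axis), both CC-IF minus CC on log2(FPKM + 1), 1 point per gene of 9939; the dashed line marks equal changes, and 31 genes, all small RNAs or predicted genes, lie outside the axes. PPAR alpha and ER genes spread along the liver axis, while Rbm3 lies near the dashed line at 1.34 in liver and 1.10 in hippocampus.

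The 10 genes with the highest interaction, by the naming rule, were Acot3, Eif3j2, Usp2, Dbp, Per3, Acot1, Por, Wee1, Tef and Acot2. Acot3, an acyl-CoA thioesterase of peroxisomes (chromosome 12, 84052144 to 84060400), had 147, 93.6, 80.9 and 178 FPKM in CC-IF livers, against 0.266, 0.546, 3.03 and 6.53 FPKM in CC livers. Hippocampal Acot3 was 0.973, 1.47 and 0.959 FPKM on CC-IF and 1.49, 1.47, 1.64 and 1.37 FPKM on CC. The livers separated completely and the hippocampi overlapped. Its interaction was 5.66 ± 0.62 (SE, adjusted p = 4.14e-05), from 5.43 in liver and -0.23 in hippocampus. Acot1 and Acot2, close relatives in sequence, had interactions of 3.19 and 2.59, and reads of the family may be shared between them.

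Usp2, a deubiquitinase and clock output, had 49.1, 52.6, 56 and 61.7 FPKM in CC-IF livers, against 1.8, 1.22, 1.84 and 2.31 FPKM in CC livers. Hippocampi had 21.2, 19.9 and 20.7 FPKM on CC-IF and 17.2, 17, 15.5 and 17.6 FPKM on CC, so CC-IF stood above CC in each tissue. The liver change of 4.33 ± 0.13 exceeded the hippocampal change of 0.28 ± 0.06 (unadjusted p = 0.00197) by 4.05 (adjusted p = 3.16e-10). Por, the reductase that feeds electrons to microsomal cytochromes P450, had 602, 633, 583 and 707 FPKM in CC-IF livers and 44.5, 50.9, 94.6 and 110.4 FPKM in CC livers. Its hippocampal levels overlapped, with 24.3 to 25.6 FPKM on CC-IF and 21.8 to 26.1 FPKM on CC. Wee1, a kinase that holds cells before mitosis, was 2.92 ± 0.13 in liver and -0.11 ± 0.09 in hippocampus.

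Among the 10 lowest interactions were those of Eif3j1, Sdf2l1, Derl3, Sqle, Fabp5, Fdps, Fasn, Tubb2a and Idi1. Sdf2l1, an ER co-chaperone (chromosome 16, 17130138 to 17132383), had 0.962, 2.62, 4.34 and 2.88 FPKM in CC-IF livers, against 75.5, 61.6, 61.1 and 28.3 FPKM in CC livers. In hippocampus it had 4.38, 3.96 and 8.71 FPKM on CC-IF and 10.1, 4.33, 8.28 and 8.65 FPKM on CC, which overlapped. Fabp5, a fatty acid binding protein, had 9.11 ± 3.7 FPKM in CC-IF livers and 70.0 ± 35 FPKM in CC livers (SD, n = 4 each), with 24.5 to 38 FPKM in CC-IF hippocampi and 28.8 to 33.1 FPKM in CC hippocampi. Tubb2a, a beta tubulin, had 12.9 ± 4.5 FPKM in CC-IF livers and 82.8 ± 14 FPKM in CC livers (SD, n = 4 each). In hippocampus it averaged 137 FPKM on CC-IF and 137 FPKM on CC.

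Eif3j1, with the lowest interaction, and Eif3j2, with the second highest, are near-identical copies of a translation initiation factor gene, so the split of reads between them is uncertain. The interaction call of Eif3j2 was lost in 8 of the alternatives, with an adjusted p of 0.0814 without CC-IF hippocampus 0. Eif3j1 had 3.03, 1.82, 0.0941 and 17.5 FPKM in CC-IF livers and 42.2, 37.3, 44.2 and 19.5 FPKM in CC livers. Eif3j2 had 24.7, 34.2, 39.3 and 25.4 FPKM in CC-IF livers and 0.0262, 0.0524, 0.036 and 19.6 FPKM in CC livers. The sum of the pair was 27.8, 36, 39.4 and 42.9 FPKM in CC-IF livers and 42.2, 37.3, 44.2 and 39.1 FPKM in CC livers, which overlapped. In hippocampus the sum was 13.8, 16.5 and 12.6 FPKM on CC-IF and 17.2, 16.8, 12.9 and 15.8 FPKM on CC.

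**Figure D2:**
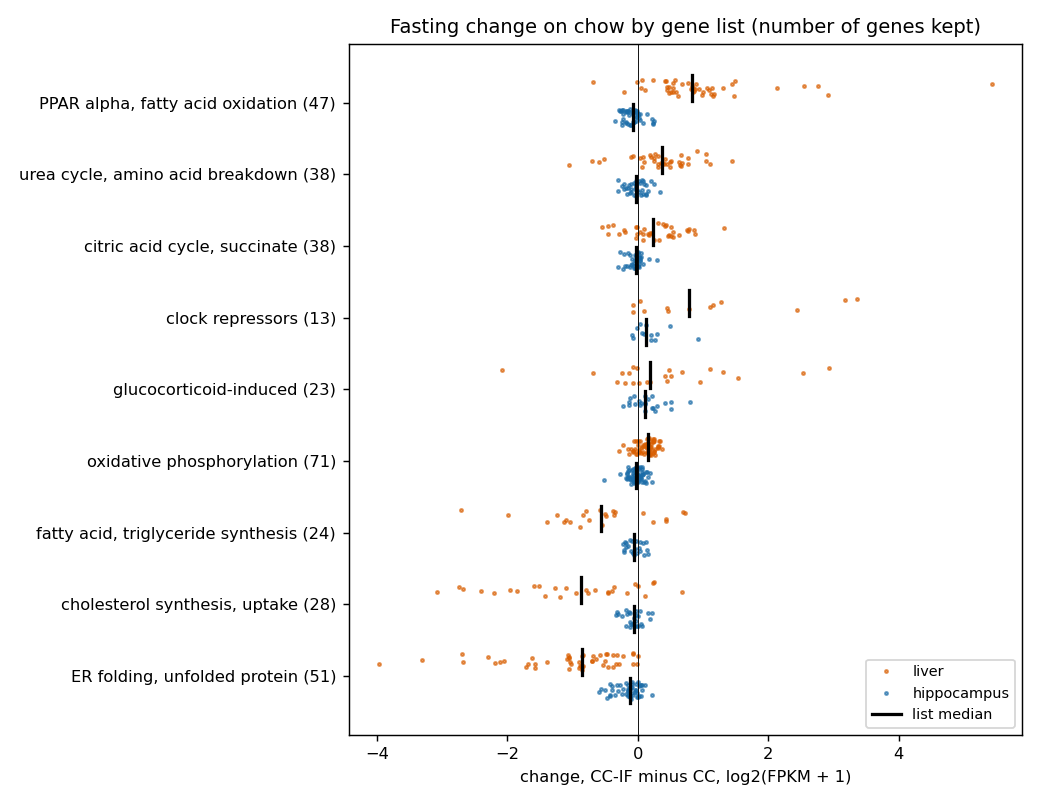
Change of each kept gene of 9 lists in liver and hippocampus, CC-IF minus CC on log2(FPKM + 1), 1 point per gene and tissue, with the list median as a black bar. The liver medians run between 0.83 for PPAR alpha targets and -0.87 for cholesterol synthesis, and the hippocampal medians between 0.13 for clock repressors and -0.12 for ER folding.

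Fatty acid oxidation and other PPAR alpha targets separated the tissues. Of 47 kept, 34 changed more upward in liver than in hippocampus and 0 more downward, against 9.87% and 5.6% of all genes. In liver 37 rose and 0 fell, against 15.5% and 10.8% of all genes (median 0.83, all genes 0.02). In hippocampus 0 passed (median -0.08, all genes -0.02). At an unadjusted p under 0.05, 8 of the 47 were lower in hippocampus, against 5.41% of all genes, and 1 was higher, against 3.22%. After median scaling the counts were 5 and 3, and without CC-IF hippocampus 0 they were 2 and 0. Hadhb, a subunit of the mitochondrial trifunctional protein, had 150.3, 177, 157 and 157 FPKM in CC-IF livers and 69.6, 84.4, 88.4 and 116 FPKM in CC livers. It had 12.2, 15.9 and 13.4 FPKM in CC-IF hippocampi and 18.1, 17.8, 15.1 and 17.5 FPKM in CC hippocampi, a change of -0.29 ± 0.10 (unadjusted p = 0.0172), and the interaction was 1.14 ± 0.18 (adjusted p = 0.000926). Slc27a1, a fatty acid transporter, had 13.5 ± 2.9 FPKM in CC-IF livers against 2.36 ± 1 FPKM in CC livers (SD, n = 4 each). Its hippocampal means were 22.8 FPKM on CC-IF and 23 FPKM on CC. Acaa1a, a thiolase of peroxisomes, had 150.4, 173, 151 and 153 FPKM in CC-IF livers and 49, 52.6, 50.5 and 80.4 FPKM in CC livers, with an interaction of 1.69 ± 0.18. Cpt1a, which admits fatty acids to mitochondria, was 1.06 ± 0.18 in liver and -0.01 ± 0.09 in hippocampus, a difference that passed (adjusted p = 0.004).

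Genes of ketone body synthesis, use and transport were called in either direction. Slc16a7, a monocarboxylate transporter, had 59.3, 53.2, 47.6 and 60.1 FPKM in CC-IF livers and 10.1, 11.9, 14.9 and 20.1 FPKM in CC livers. Slc16a6, another transporter of that family, changed by -1.39 ± 0.12 in liver (adjusted p = 0.000165) and -0.09 ± 0.09 in hippocampus, an interaction of -1.30 (adjusted p = 0.000138). Aacs, which returns ketone bodies to lipid synthesis, was -1.81 ± 0.30 in liver and -0.03 ± 0.07 in hippocampus. Oxct1, the enzyme that tissues need to burn ketone bodies and that hepatocytes lack, had 44, 44.3 and 43.6 FPKM in CC-IF hippocampi and 46.6, 48.9, 41.6 and 47.3 FPKM in CC hippocampi, ranges that overlapped. Of 10 kept genes of the list, 4 changed more upward and 2 more downward in liver than in hippocampus, against 9.87% and 5.6% of all genes.

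Lipid synthesis fell in liver. In the cholesterol list 15 of 28 genes changed more downward in liver than in hippocampus, against 5.6% of all genes, and 0 more upward. In liver 18 fell, against 10.8% of all genes, and 1 rose (median -0.87). The hippocampal median was -0.06, with 5 lower at an unadjusted p under 0.05, against 5.41% of all genes, and 1 higher. Sqle, the squalene epoxidase, had 1.36, 1.17, 1.01 and 1.06 FPKM in CC-IF livers and 18.5, 30.2, 19 and 8 FPKM in CC livers. Its hippocampal change of -0.17 ± 0.09 did not pass, and the interaction was -2.92 ± 0.36 (adjusted p = 0.00014). Idi1, an isomerase early in the pathway, had 12.5, 6.28, 3.93 and 4.97 FPKM in CC-IF livers and 40.3, 79.8, 47.4 and 34.7 FPKM in CC livers. Hippocampi had 7.83, 9.16 and 8.62 FPKM on CC-IF, against 12, 10.4, 10.1 and 11.6 FPKM on CC, so CC-IF lay below CC in each tissue (hippocampal change -0.33 ± 0.09, unadjusted p = 0.0037, adjusted p = 0.364). Msmo1, a sterol methyl oxidase, was likewise -1.43 ± 0.29 in liver and -0.31 ± 0.07 in hippocampus (unadjusted p = 0.0022). Of 24 genes of fatty acid and triglyceride synthesis, 14 fell and 3 rose in liver, where 10.8% and 15.5% of all genes did, and 7 changed more downward and 2 more upward there than in hippocampus. The 17 liver calls were 10 without CC-IF liver 3 or CC liver 1. Fasn, the fatty acid synthase, had 50.8, 33.4, 21.2 and 28.3 FPKM in CC-IF livers and 425, 335, 192 and 77.1 FPKM in CC livers, with 28.8 to 30.3 FPKM in CC-IF hippocampi and 30.2 to 31.7 FPKM in CC hippocampi. CC liver 3 was the lowest CC liver for Fasn, Sqle and Idi1. Of the 24 genes, 3 passed in the interaction without both libraries high in choroid plexus genes and 5 without CC-IF hippocampus 2 or CC hippocampus 3.

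Genes of ER folding and the unfolded protein response were lower in liver and, at smaller sizes, in hippocampus. Of 51 kept, 42 fell in liver, against 10.8% of all genes, and 0 rose (median -0.86). In the interaction 37 passed, all more downward in liver, against 5.6% of all genes. In hippocampus 0 passed after adjustment and 15 (29.4%) were lower at an unadjusted p under 0.05, against 5.41% of all genes, with 1 higher. A negative change in each tissue was found for 39 of the 51, against 28.5% of all genes. Counted singly, 50 were negative in liver and 40 in hippocampus, where 4661 and 5710 of all 9939 genes were. The 15 lower in hippocampus at an unadjusted p under 0.05 became 10 after median scaling or quantile normalization. They were 8 without CC-IF hippocampus 0 or CC hippocampus 3, 9 without CC-IF hippocampus 1 or CC hippocampus 0, and 19 without both libraries high in choroid plexus genes. Hspa5 (BiP), the main ER chaperone, whose promoter stands above, had 97.8, 167, 211 and 174 FPKM in CC-IF livers and 853, 636, 798 and 499.8 FPKM in CC livers. Hippocampal Hspa5 was 37.3, 51.6 and 71.5 FPKM on CC-IF and 83.9, 59.1, 81.1 and 87.9 FPKM on CC, which overlapped.

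Calr, the lectin chaperone calreticulin, had 133, 193, 225 and 180.0 FPKM in CC-IF livers, against 779.6, 793, 812 and 624 FPKM in CC livers. Hippocampi had 93.7, 106 and 127 FPKM on CC-IF and 152, 132, 157 and 159 FPKM on CC, with no overlap in either tissue. Hsp90b1 (GRP94), the ER form of HSP90, had 152, 220.2, 231 and 208 FPKM in CC-IF livers and 736, 542, 655 and 494 FPKM in CC livers. Its hippocampal values were 51.1, 63.2 and 67.1 FPKM on CC-IF and 87.9, 80.5, 78.8 and 94.2 FPKM on CC, also without overlap. The Hsp90b1 change was -1.58 ± 0.16 in liver (adjusted p = 0.000308) and -0.50 ± 0.10 in hippocampus (unadjusted p = 0.000808, adjusted p = 0.304). Pdia6, a disulphide isomerase, changed by -2.18 ± 0.17 in liver and -0.59 ± 0.15 in hippocampus (unadjusted p = 0.00357). Manf, a secreted factor of the same response, was -2.68 ± 0.28 in liver and -0.40 ± 0.16 in hippocampus (unadjusted p = 0.0355). Xbp1, the transcription factor of the pathway, was -1.06 ± 0.12 in liver and -0.31 ± 0.11 in hippocampus. Edem1, which marks misfolded glycoproteins for removal, went against the others in hippocampus, with -0.48 in liver and 0.21 in hippocampus (unadjusted p = 0.0321).

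Few genes were called in each tissue with the same sign. Without a threshold 5232 genes (52.6%) had the same sign in each tissue, 2399 higher (24.1%) and 2833 lower (28.5%), and 4698 (47.3%) had opposite signs. Of the 2614 genes called in liver, 1413 (54.1%) had the same sign in hippocampus, 734 of 1540 higher (47.7%) and 679 of 1074 lower (63.2%). The bases for these shares differ by sign: of all 9939 genes, 4223 had a positive and 5710 a negative change in hippocampus. With an adjusted p under 0.05 in each tissue 3 genes shared a sign (0.0302%), Rbm3, Dbp and Etnppl, and 0 had opposite signs. With the unadjusted p in hippocampus the counts were 176 of the same sign (1.77%), 85 higher (0.855%) and 91 lower (0.916%), and 100 of opposite sign (1.01%), 73 higher in liver (0.734%) and 27 lower in liver (0.272%). The 3 genes became 0 without CC-IF hippocampus 0 or 1, and 1 without CC-IF hippocampus 2 or without CC hippocampus 0, 1 or 3. Leaving out CC-IF hippocampus 0 gave 112 of the same sign and 58 of opposite sign, and leaving out CC hippocampus 2, a library high in choroid plexus genes, gave 241 and 208; without CC liver 1 the genes of opposite sign numbered 64. The values of CC-IF and CC did not overlap for 28.7% of genes in liver, for 9.04% in hippocampus, for 1.76% in each tissue with the same direction and for 1.01% in each with opposite directions.

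**Figure D3:**
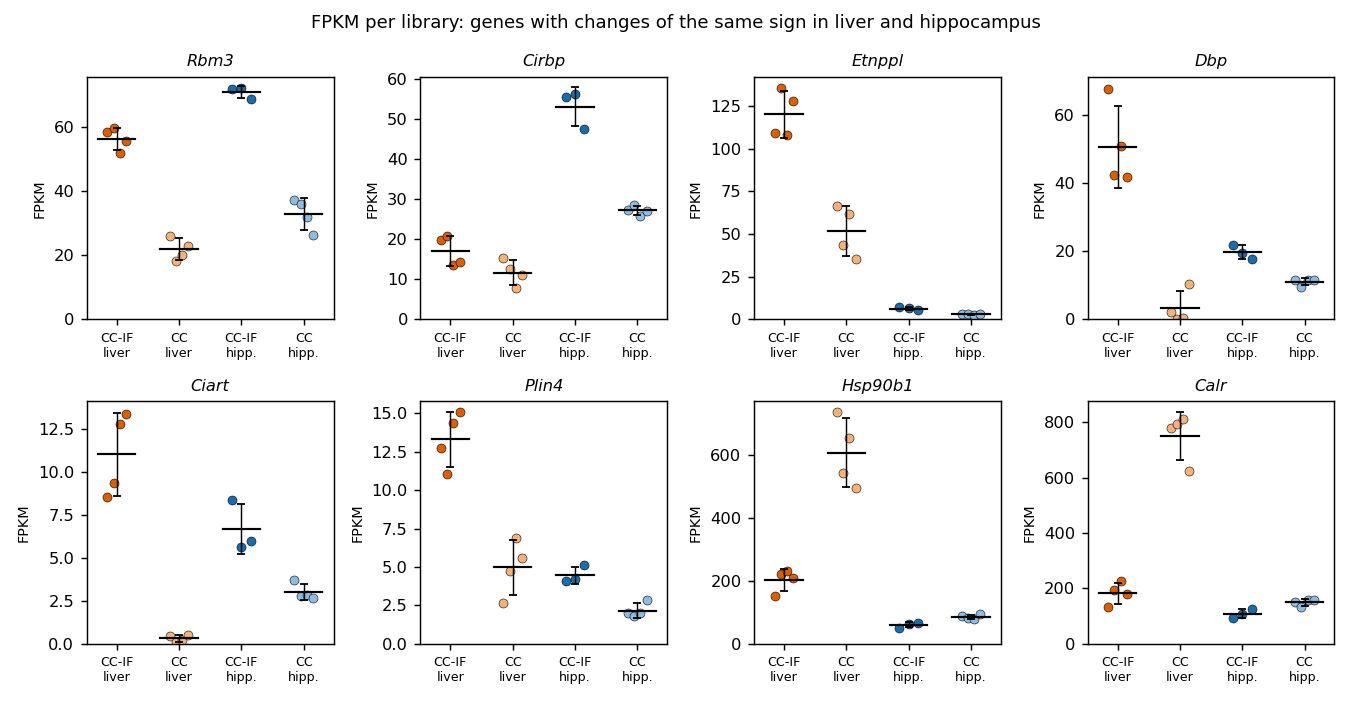
FPKM of 8 genes in each library of the 4 chow groups, with the group mean as a bar and its SD as a whisker (n = 3 for CC-IF hippocampus, otherwise 4). CC-IF lies apart from CC in each tissue for every gene shown but Cirbp in liver, where CC-IF spans 13.5 to 20.8 FPKM and CC 7.83 to 15.2 FPKM.

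Rbm3 and Cirbp encode RNA-binding proteins known for their induction by mild cold. Rbm3 (chromosome X, 8138975 to 8145880) had 58.3, 59.6, 51.8 and 55.7 FPKM in CC-IF livers, against 25.9, 18.1, 20.2 and 23 FPKM in CC livers. Its hippocampal values were 71.8, 72.1 and 68.7 FPKM on CC-IF and 37.2, 35.9, 31.9 and 26.2 FPKM on CC. The groups did not overlap in either tissue, and the change was 1.34 ± 0.11 in liver (adjusted p = 0.000137) and 1.10 ± 0.11 in hippocampus (adjusted p = 0.0162), with an interaction of 0.24 ± 0.16 that did not pass (adjusted p = 0.36). Cirbp (chromosome 10, 80165990 to 80172786) had 55.7, 56.3 and 47.6 FPKM in CC-IF hippocampi and 27.4, 28.5, 25.9 and 27.1 FPKM in CC hippocampi. Livers had 19.9, 20.8, 13.5 and 14.3 FPKM on CC-IF and 15.2, 12.6, 7.83 and 11.2 FPKM on CC, which overlapped. Its change was 0.94 ± 0.07 in hippocampus (adjusted p = 0.00387) and 0.52 ± 0.20 in liver (adjusted p = 0.0817). Cirbp passed in hippocampus under every alternative run, whereas Rbm3 had an adjusted p of 0.125, 0.134 and 0.0581 there without CC-IF hippocampus 0, 1 and 2, and 0.103 without both libraries high in choroid plexus genes. Rbm3 also had 0.0746 with all 8 groups of the series in the fit and 0.206 with no filter on low genes.

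Several cytosolic heat shock genes had lower values on CC-IF in hippocampus, none past the adjusted threshold. Of 26 kept genes of the heat shock and cold-inducible list, 6 were lower in hippocampus at an unadjusted p under 0.05, against 5.41% of all genes, and 2 higher, Cirbp and Rbm3, against 3.22%; without CC-IF hippocampus 0 there were 4 lower, and without both libraries high in choroid plexus genes 11 lower and 3 higher. Hspa8, the constitutive HSP70, had 415, 448 and 455 FPKM in CC-IF hippocampi and 592, 572, 508 and 599 FPKM in CC hippocampi, without overlap (change -0.37 ± 0.08, unadjusted p = 0.00106, adjusted p = 0.304). Hsph1, a nucleotide exchange factor of HSP70, had 42.9, 48.6 and 58.3 FPKM in CC-IF hippocampi and 75.3, 66.2, 58.5 and 69.1 FPKM in CC hippocampi. Chordc1, a co-chaperone of HSP90, had 13.5, 18 and 18.5 FPKM on CC-IF, against 27.5, 22.4, 20.6 and 24 FPKM on CC in hippocampus. In liver the changes of Hspa8, Hsph1 and Chordc1 were 0.36, 0.19 and -0.07, with adjusted p-values of 0.196, 0.754 and 0.836.

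Etnppl, an enzyme that breaks down phosphoethanolamine, had 109, 135, 108 and 128 FPKM in CC-IF livers and 66.3, 43.8, 62 and 35.1 FPKM in CC livers. It had 6.99, 6.71 and 5.31 FPKM in CC-IF hippocampi and 3.2, 2.91, 2.85 and 2.89 FPKM in CC hippocampi. The changes of 1.24 ± 0.19 in liver and 0.88 ± 0.10 in hippocampus did not differ past the threshold (interaction 0.35 ± 0.23, adjusted p = 0.343), although they did with a pseudocount of 5 (adjusted p = 0.0403). Dbp, a transcription factor and clock output, had 67.5, 42.4, 50.7 and 41.6 FPKM in CC-IF livers, against 2.18, 0.23, 0.337 and 10.5 FPKM in CC livers. Hippocampal Dbp was 21.9, 19.5 and 17.8 FPKM on CC-IF and 11.6, 9.57, 11.6 and 11.4 FPKM on CC. Its change of 4.18 ± 0.61 in liver exceeded that of 0.78 ± 0.09 in hippocampus (interaction adjusted p = 0.00509). The hippocampal calls of Etnppl and Dbp were lost under several alternatives. Without CC-IF hippocampus 0 the adjusted p was 0.17 for Etnppl and 0.17 for Dbp, without CC-IF hippocampus 1 0.156 for Etnppl and 0.156 for Dbp, and without CC hippocampus 3 0.109 for Etnppl and 0.109 for Dbp. Without CC hippocampus 0 it was 0.0838 for Etnppl and 0.11 for Dbp, and without CC hippocampus 1 0.132 for Etnppl and 0.103 for Dbp. Dbp also had 0.0581 without CC-IF hippocampus 2. With the index block it was 0.0964 for Etnppl and 0.0964 for Dbp, and with no filter on low genes 0.206 for Etnppl and 0.206 for Dbp. Etnppl had 0.0541 with all 8 groups in the fit. Dbp had 0.0662 after median scaling, 0.0683 after quantile normalization, 0.0692 with no intensity trend, 0.0563 with a mean of at least 5 FPKM and 0.0642 without both libraries high in choroid plexus genes.

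Plin4, a coat protein of lipid droplets that glucocorticoids induce, had 12.7, 11.1, 14.4 and 15.1 FPKM in CC-IF livers and 2.67, 4.75, 6.87 and 5.59 FPKM in CC livers. It had 4.08, 4.21 and 5.1 FPKM in CC-IF hippocampi, against 1.97, 1.79, 2.03 and 2.85 FPKM in CC hippocampi. The change was 1.31 ± 0.21 in liver and 0.80 ± 0.13 in hippocampus (unadjusted p = 0.000131, adjusted p = 0.1). Of the 23 kept glucocorticoid-induced genes, 9 rose and 2 fell in liver, where 15.5% and 10.8% of all genes did, and 6 were higher and 0 lower in hippocampus at an unadjusted p under 0.05, against 3.22% higher of all genes; without CC-IF hippocampus 0 there were 10. Mt1, a metallothionein that binds zinc, had 308, 309.6 and 359.5 FPKM in CC-IF hippocampi and 206, 199, 259.9 and 252 FPKM in CC hippocampi, a change of 0.51 ± 0.11, against 2.93 ± 0.27 in liver. Fkbp5, a co-chaperone of the glucocorticoid receptor, passed in liver at 1.54 ± 0.27 and was 0.11 ± 0.11 in hippocampus, where 12.7 to 16.8 FPKM on CC-IF overlapped 12.1 to 15.3 FPKM on CC.

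Among genes lower in each tissue, Mars, the methionyl-tRNA synthetase, had 20.0, 18.2, 22.2 and 20.2 FPKM in CC-IF livers, against 30.5, 30.0, 30.2 and 26.4 FPKM in CC livers. Its hippocampal values were 8.73, 9.06 and 9.15 FPKM on CC-IF and 11.3, 12.8, 11.5 and 12 FPKM on CC. The changes of -0.52 ± 0.08 in liver and -0.37 ± 0.07 in hippocampus gave an interaction of -0.15 ± 0.11 that did not pass (adjusted p = 0.377). Dpp9, a cytosolic dipeptidyl peptidase, changed by -0.87 ± 0.08 in liver and -0.33 ± 0.07 in hippocampus (unadjusted p = 0.000998). Ly6e, a surface protein of the Ly6 family, had 33, 32.3 and 34.3 FPKM in CC-IF hippocampi and 43.5, 42.5, 43.6 and 37.9 FPKM in CC hippocampi, a change of -0.32 ± 0.06, against -1.09 ± 0.13 in liver. Summed macrophage and endothelial markers were lower on CC-IF in hippocampus, and in liver their ranges overlapped. The summed level of 28 macrophage genes was 188 to 200 FPKM in CC-IF hippocampi and 207 to 226 FPKM in CC hippocampi, and in liver 193 to 339 FPKM on CC-IF and 295 to 535 FPKM on CC. The sum of 20 endothelial genes was 54.8 to 60.1 FPKM in CC-IF hippocampi and 61.8 to 71.9 FPKM in CC hippocampi, and in liver 219 to 256 FPKM on CC-IF and 255 to 296 FPKM on CC. Of the kept macrophage genes 12 of 15, and of the endothelial genes 9 of 14, had a negative change in each tissue, against 28.5% of all genes. Counted singly, 14 of the 15 and 10 of the 14 were negative in liver, where 4661 of all 9939 genes were. In hippocampus 13 of the 15 and 13 of the 14 were negative, where 5710 of all genes were. Few were called: in liver 1 of the 15 and 2 of the 14 fell, against 10.8% of all genes. In hippocampus and in the interaction 0 passed. At an unadjusted p under 0.05, 3 of the 15 and 3 of the 14 were lower in hippocampus, against 5.41% of all genes. In bulk tissue fewer cells of a type and less RNA per cell cannot be told apart, and the part of these cells in the changes was not tested.

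**Figure D4:**
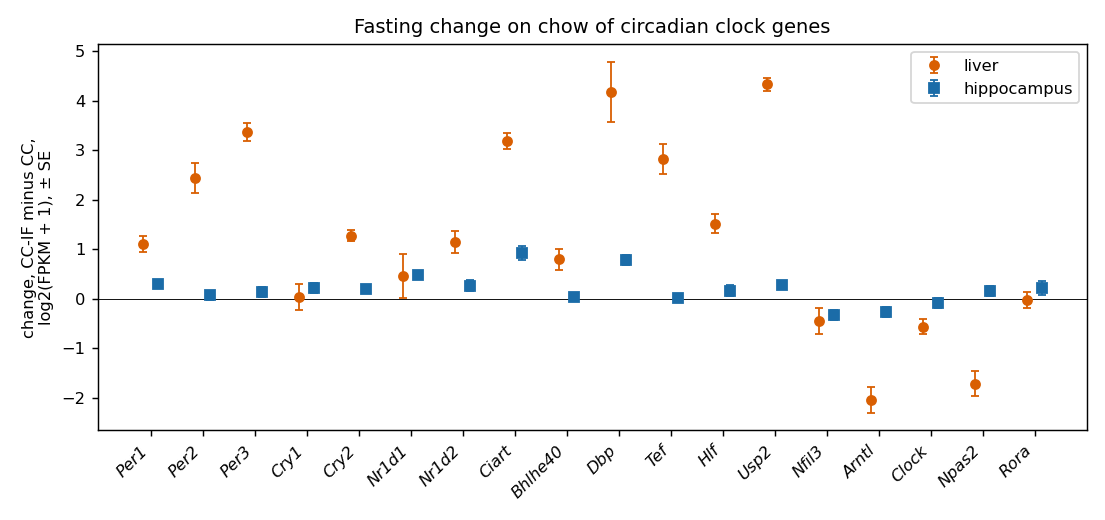
Fasting change on chow (CC-IF minus CC, log2(FPKM + 1)) of 18 clock genes in liver and hippocampus, with the standard error as a whisker. The liver changes run between 4.33 for Usp2 and -2.05 for Arntl, and the hippocampal changes between 0.93 for Ciart and -0.33 for Nfil3.

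The liver changes of clock genes were among the highest of all, and most repressors had the same sign in hippocampus. Of 13 clock repressors 8 rose in liver, against 15.5% of all genes, and 0 fell (median 0.79). In the interaction 6 changed more upward in liver, against 9.87% of all genes. In hippocampus 5 of the 13 were higher at an unadjusted p under 0.05, against 3.22% of all genes, and 0 lower. A positive change in each tissue was found for 10, against 24.1% of all genes. Counted singly, 11 were positive in liver and 10 in hippocampus, where 5275 and 4223 of all 9939 genes were. Ciart, a repressor of CLOCK and BMAL1 with 3 E-boxes in its promoter window, had 8.54, 9.36, 12.8 and 13.4 FPKM in CC-IF livers, against 0.431, 0.127, 0.189 and 0.51 FPKM in CC livers. Hippocampal Ciart was 8.34, 5.65 and 6.01 FPKM on CC-IF and 3.69, 2.81, 2.85 and 2.67 FPKM on CC, a change of 0.93 ± 0.14 (adjusted p = 0.0851) against 3.18 ± 0.16 in liver. Per1 had 19.3, 22.3, 29.3 and 26.1 FPKM in CC-IF livers and 11.5, 7.94, 10.7 and 12.9 FPKM in CC livers. Its hippocampal values were close within groups, 21.7, 21.7 and 22.2 FPKM on CC-IF and 17.7, 16.6, 18.5 and 17.8 FPKM on CC, a change of 0.29 ± 0.06 (unadjusted p = 0.000827).

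Per2 and Per3, the other period genes, rose in liver by 2.44 ± 0.31 and 3.36 ± 0.18, and their hippocampal changes of 0.07 ± 0.09 and 0.13 ± 0.10 did not pass. Cry2, a cryptochrome, had 31.2, 30.1 and 30.2 FPKM in CC-IF hippocampi, against 28, 27, 24.4 and 26 FPKM in CC hippocampi (0.20 ± 0.06, unadjusted p = 0.00887), and rose by 1.28 ± 0.11 in liver. Nr1d1 (REV-ERB alpha) had 47.2, 41.9 and 38.8 FPKM on CC-IF and 31.4, 28.8, 30.7 and 29.2 FPKM on CC in hippocampus (0.49 ± 0.07, unadjusted p = 9.86e-05, adjusted p = 0.0851). In liver Nr1d1 had 49.3, 33.9, 65.8 and 43 FPKM on CC-IF and 55.3, 16.1, 19.7 and 71.3 FPKM on CC, so the CC livers spread on both sides of CC-IF (0.46 ± 0.44), and the interaction was -0.03 (adjusted p = 0.979). Dbp too was higher in CC livers 0 and 3 than in CC livers 1 and 2.

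The activators ran opposite to the repressors in liver. Arntl (BMAL1) had 1.27, 2.24, 2.31 and 3.74 FPKM in CC-IF livers and 10.6, 16, 17.3 and 8.41 FPKM in CC livers. Its hippocampal values were 7.66, 8.85 and 7.98 FPKM on CC-IF, against 11.2, 10.3, 8.73 and 9.96 FPKM on CC (-0.27 ± 0.09, unadjusted p = 0.0166), and the interaction was -1.78 ± 0.31 (adjusted p = 0.00152). Npas2, which can take the place of CLOCK, had 0.0925, 0.239, 0.1 and 0.124 FPKM in CC-IF livers and 1.78, 4, 4.67 and 1.47 FPKM in CC livers. In hippocampus 5.26 to 7.04 FPKM on CC-IF and 4.77 to 5.8 FPKM on CC overlapped. Nfil3, a repressor that competes with Dbp for the same sites, was -0.33 ± 0.11 in hippocampus (unadjusted p = 0.0144) and -0.45 ± 0.27 in liver (adjusted p = 0.242). Tef, a relative of Dbp, rose by 2.83 ± 0.30 in liver and stood at 55.3 ± 1.6 FPKM in CC-IF hippocampi (SD, n = 3) and 54.6 ± 3.2 FPKM in CC hippocampi (SD, n = 4). Of 20 clock activators and outputs, 10 changed more upward and 5 more downward in liver than in hippocampus, against 9.87% and 5.6% of all genes.

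Among the 100 genes of opposite sign, the 6 with the smallest larger p of both tissues were Ak4, Gsr, Coa6, Aqp4, Adamtsl4 and Tspan31. Ak4, an adenylate kinase of mitochondria (chromosome 4, 101416478 to 101467771), had 36.7, 40.8, 43 and 45.3 FPKM in CC-IF livers, against 19.1, 14.5, 15.1 and 21.2 FPKM in CC livers. Hippocampal Ak4 was 6.77, 8.14 and 8.69 FPKM on CC-IF and 10.7, 10.4, 10.6 and 10.6 FPKM on CC. The changes were 1.21 ± 0.13 in liver and -0.39 ± 0.08 in hippocampus (unadjusted p = 0.00126, adjusted p = 0.304 in hippocampus). Coa6, an assembly factor of cytochrome c oxidase, had 31, 44.8, 31 and 35.2 FPKM in CC-IF livers and 17.3, 18.7, 19.4 and 17.9 FPKM in CC livers, with 8.79 to 9.72 FPKM in CC-IF hippocampi and 11.1 to 12.7 FPKM in CC hippocampi.

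Aqp4, the water channel of astrocyte end-feet, had 16.3, 18.8 and 17.3 FPKM in CC-IF hippocampi and 21.9, 23, 19.8 and 22 FPKM in CC hippocampi. In liver it had 3.35, 4.7, 2.12 and 1.53 FPKM on CC-IF, against 0.702, 0.514, 0.799 and 0.82 FPKM on CC, without overlap. Gsr, the glutathione reductase, was the 1 of the 6 that was lower in liver, with 33.9, 38.2, 34.5 and 34.4 FPKM on CC-IF and 40.3, 45, 48.9 and 44.2 FPKM on CC. Hippocampal Gsr was 10.6, 9.77 and 11 FPKM on CC-IF and 7.32, 8.09, 7.03 and 8.46 FPKM on CC. Tspan31, a tetraspanin, changed by 0.36 ± 0.10 in liver and -0.42 ± 0.06 in hippocampus, and Adamtsl4, a protein of the extracellular matrix, by 0.48 ± 0.12 in liver and -0.36 ± 0.08 in hippocampus. In hippocampus the changes of all 6 genes did not pass in limma. Beside Ak4, the adjusted p there was 0.304 for Gsr and Adamtsl4, 0.318 for Coa6, 0.348 for Aqp4 and 0.0851 for Tspan31. The liver calls of Tspan31 and Adamtsl4 were near the threshold. Tspan31 had an adjusted p of 0.0643 there after quantile normalization, of 0.0519 and 0.0511 without CC-IF livers 0 and 1, and of 0.0607 and 0.0506 without CC livers 0 and 2. Adamtsl4 had 0.0535 without CC-IF liver 3, and 0.0545 and 0.0537 without CC livers 1 and 2.

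**Figure D5:**
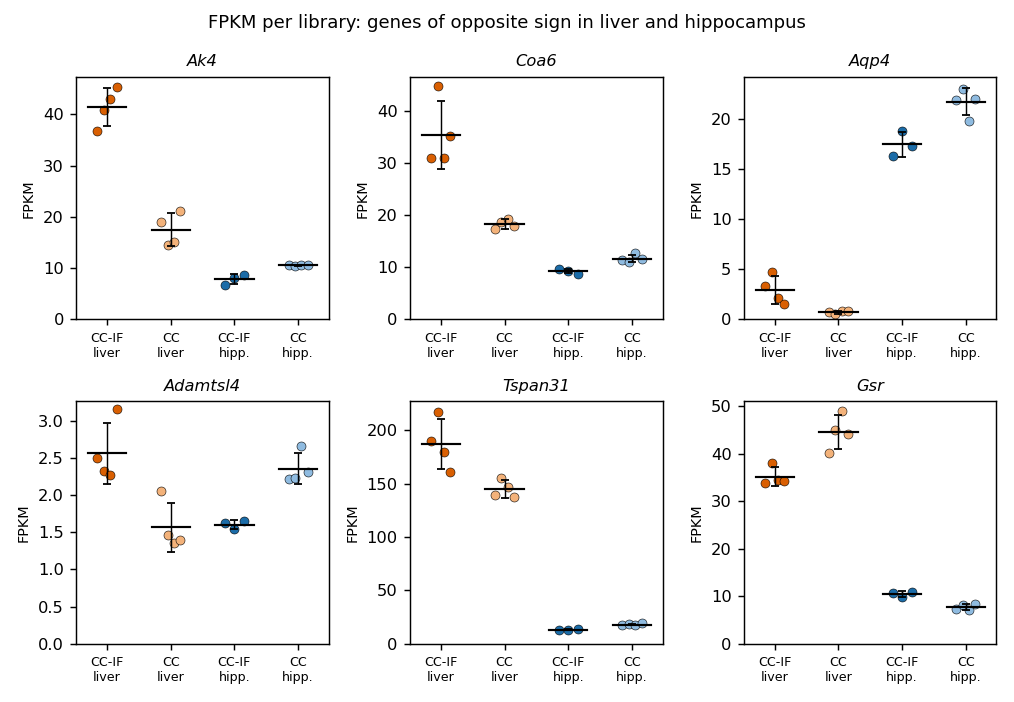
FPKM of the 6 genes of opposite sign in each library of the 4 chow groups, with the group mean as a bar and its SD as a whisker (n = 3 for CC-IF hippocampus, otherwise 4). Ak4, Coa6, Aqp4, Adamtsl4 and Tspan31 were higher on CC-IF in liver and lower in hippocampus, and Gsr the other way round. The hippocampal changes of these 6 genes did not pass after adjustment.

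In the citric acid cycle and succinate list the called genes changed more upward in liver. Of 38 kept, 15 changed more upward in liver than in hippocampus, against 9.87% of all genes, and 0 more downward. In hippocampus 1 was higher and 4 lower at an unadjusted p under 0.05, against 3.22% and 5.41% of all genes; without CC-IF hippocampus 0 there were 0 and 1. Slc25a10, the mitochondrial dicarboxylate carrier that exchanges succinate and malate, had 82.5, 83, 61.3 and 70.7 FPKM in CC-IF livers, against 25.9, 28.9, 24.7 and 37.2 FPKM in CC livers, with 1.65 to 1.92 FPKM in CC-IF hippocampi and 1.24 to 1.75 FPKM in CC hippocampi. Pcx, which makes oxaloacetate from pyruvate, had 321 ± 34 FPKM in CC-IF livers and 176 ± 8.3 FPKM in CC livers (SD, n = 4 each), and its hippocampal change was -0.06 ± 0.08. Aldh5a1, which makes succinate from the breakdown of GABA, differed by 0.72 ± 0.11 between the tissues (adjusted p = 0.000772). Succinate dehydrogenase, which oxidizes succinate, differed by subunit. Sdhc had 172, 198, 168 and 192 FPKM in CC-IF livers and 145, 146, 149 and 147 FPKM in CC livers, with 35.3, 42.4 and 41.9 FPKM in CC-IF hippocampi and 45.3, 43.6, 48.5 and 45.6 FPKM in CC hippocampi (interaction 0.51 ± 0.11, adjusted p = 0.00506).

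Sdhd passed in the interaction at 0.47 ± 0.12 (adjusted p = 0.0183), although not without CC-IF hippocampus 2 (adjusted p = 0.0574), without both libraries high in choroid plexus genes (0.0617) or after quantile normalization (0.067). Sdha and Sdhb, the catalytic subunits, had interactions of 0.08 ± 0.11 and 0.13 ± 0.12 that did not pass. Sucnr1, the succinate receptor, was not among the kept genes: it was listed at 0 in all 7 hippocampi and had 12.4, 19.2, 10.3 and 11.1 FPKM in CC-IF livers, against 32.6, 32.7, 27.5 and 23.7 FPKM in CC livers. In oxidative phosphorylation 5 of 71 genes passed in the interaction, all more upward in liver, which is below the 9.87% of all genes. Atp5e, the epsilon subunit of ATP synthase, had 79, 95.3 and 94.6 FPKM in CC-IF hippocampi and 133, 127, 126 and 127 FPKM in CC hippocampi (-0.52 ± 0.07, unadjusted p = 5.77e-05, adjusted p = 0.0851).

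Among 38 genes of amino acid breakdown and the urea cycle, 16 changed more upward and 3 more downward in liver than in hippocampus, against 9.87% and 5.6% of all genes; the 19 calls became 12 with the index as an animal. Gpt, an alanine aminotransferase, had 203, 244, 186 and 234 FPKM in CC-IF livers and 96.3, 108, 99.1 and 112 FPKM in CC livers, with an interaction of 1.15 ± 0.17 (adjusted p = 0.000466). Oat, which breaks down ornithine, was 1.11 in liver and -0.17 in hippocampus (unadjusted p = 0.0463), while Prodh, which starts proline breakdown, was 0.90 in liver and 0.35 in hippocampus (unadjusted p = 0.0125). Of 25 genes of gluconeogenesis and glycogen, 7 changed more upward and 2 more downward in liver; without CC-IF liver 2 the 9 calls became 14. In insulin and FoxO signalling 5 of 39 changed more upward and 1 more downward, close to or below the shares of all genes. Without CC-IF hippocampus 0, 2 of the 39 were called, and without CC liver 1 or CC hippocampus 3, 3 were. Among 16 genes of sirtuins and NAD synthesis, 5 changed more upward and 1 more downward, with Nampt, the rate-limiting enzyme of NAD salvage and a clock output, at 1.83 ± 0.12 in liver and -0.04 ± 0.14 in hippocampus. Cytosolic ribosomal protein genes had 4 of 65 more upward, 2 after median scaling, 0 with all 8 groups of the series in the fit, and 0 upward and 1 downward after quantile normalization; without CC-IF hippocampus 2 it was 1.

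The remaining lists are given by their interaction counts, beside 9.87% upward and 5.6% downward of all genes. In xenobiotic metabolism 10 of 31 changed more upward and 4 more downward in liver, and the 14 calls became 7 with a mean of at least 5 FPKM and 24 with no filter on low genes. Autophagy and mitophagy had 5 of 46 in each direction. Among 26 ATF4 target genes 0 changed more upward and 4 more downward. In the liver change itself 11 of the 26 fell, against 10.8% of all genes. In the interaction 9 were called without CC liver 3, 8 without CC-IF liver 2, and 2 without CC liver 2 or CC hippocampus 3. Mitochondrial biogenesis had 5 of 20 more upward and 1 more downward, and growth arrest and proliferation 3 of 24 and 2 of 24. The 5 growth calls became 0 without both libraries high in choroid plexus genes, and 1 without CC-IF hippocampus 0 or CC hippocampus 3. Counts were, upward and downward, 0 of 17 and 1 of 17 for immediate early genes, 0 of 10 and 1 of 10 for the interferon response, and 0 of 8 in either direction for MHC presentation.

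The high-fat diet libraries give the fasting change in other animals (HFD-IF, fasted every other day, against HFD: 2 against 4 livers and 4 against 4 hippocampi). The main fits above used these libraries only in the filter on mean FPKM. In hippocampus 0 genes passed after adjustment in limma and 469 (4.72%) had an unadjusted p under 0.05. Choroid plexus genes moved there too, with 4 of the 4 kept ones lower at an unadjusted p under 0.05 and a median change of -1.40, and their part in the values that follow was not tested. Etnppl changed by 0.65 (unadjusted p = 0.00147), Cirbp by 0.54 (0.00548), Plin4 by 0.52 (0.00756), Rbm3 by 0.50 (0.0345), Per1 by 0.28 (0.035) and Dbp by 0.26 (0.0226), all with the sign they had on chow. Of all 9939 genes, 6387 had a positive change in these hippocampi. Among other same-sign genes, Ciart changed by 0.40 (unadjusted p = 0.0602), Mars by -0.08 (0.275) and Dpp9 by -0.04 (0.691). Ly6e, lower on chow, changed by 0.08 (0.344). Calr changed by -0.24 (unadjusted p = 0.028) and Hsp90b1 by -0.20 (0.102). Of the 51 ER genes, 36 had a negative change there and 4 were lower at an unadjusted p under 0.05, against 2.05% of all genes. Changes of the opposite-sign genes were -0.01 for Ak4, 0.01 for Coa6, -0.14 for Aqp4, 0.06 for Adamtsl4, 0.15 for Gsr and -0.20 for Tspan31 in these hippocampi. In the high-fat diet livers 6 genes passed (0.0604%), all lower, and at an unadjusted p under 0.05 there were 20 higher and 0 lower of the 47 PPAR alpha targets (5.4% higher of all genes), and 1 higher and 30 lower of the 51 ER genes (7.44% lower of all genes). In these livers Rbm3 changed by 1.09 (unadjusted p = 0.00195), Etnppl by 0.70 (0.0437), Dbp by 2.00 (0.131) and Plin4 by 1.06 (0.125). Cirbp changed by 0.04 (0.888) and Per1 by 0.02 (0.969) in the same livers. With only 2 HFD-IF livers these values can hang on a single library. Without HFD-IF liver 1 the changes were 0.87 for Rbm3, 0.68 for Etnppl, 2.56 for Dbp, 1.95 for Plin4, 0.38 for Cirbp and -0.44 for Per1. Whether the fasting change differed between the diets was not tested here.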

How the data were processed

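Messenger RNA was sequenced as paired reads of 125 nt from strand-specific polyA libraries, per the labels' protocols. The authors deposited 1 table of FPKM. Per the submitters' processing notes tools named are TopHat2 2.1.1, Bowtie2 2.3.5.1, Trimmomatic 0.39 and FastQC 0.11.9, and the genome build named is GRCm38 (mm10). For the program behind FPKM, its annotation and its scaling, the sources used here give nothing. FPKM carries no direct depth, and the depths given are approximate, read from low values of 6122 single-transcript genes (55.3% to 68.7% came out within 0.2 of whole fragments; 40% would by chance). Columns were tied to groups by name, and 0 columns were left without one.

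Values were taken as log2(FPKM + 1), which understates changes of low genes. Changes with ± carry standard errors, and FPKM means carry SDs. The interaction was fitted with limma 3.58.1 (R 4.3.3) over the 4 chow groups with an intensity trend, and each tissue's own change over its own 2 groups. P-values are two-sided, adjusted over 9939 genes by Benjamini and Hochberg, and "rose", "fell" or "passed" means an adjusted p under 0.05. The series calls samples of a group biological replicates. Tables used pandas 2.3.3 and numpy 2.4.6 in Python 3.11.15, and plots matplotlib 3.10.9.

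The genes, the 32 lists, the tests and the rule for naming genes were chosen with earlier results of these data known. Named are the 10 highest and 10 lowest interactions of genes whose regimens do not overlap in at least 1 tissue, the 10 same-sign and 6 opposite-sign genes with the smallest larger p, the 6 smallest hippocampal p, 4 members of each list with at least 3 interaction calls, all clock genes, and the succinate genes Sucnr1 and Sdha to Sdhd. Other list members and the markers were named after their values were seen. Some genes meeting this rule were left out of the text. Coordinates are RefSeq's on GRCm38.p6, matched by symbol or, where the symbol was absent, by a synonym that pointed to a single gene.

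Columns carry an index that repeats across groups. In hippocampus, CC-IF and CC libraries of the same index deviated together (r 0.269 to 0.337, 3 pairs), so the index was run as a block among the alternatives. The main fits used no block. This link was read from these same data, and the pair of index 2 holds both libraries high in choroid plexus genes. In liver r was 0.0225 to 0.331 (4 pairs), and between tissues -0.244 to 0.096 (7 pairs). On simulated data with 9939 genes the interaction fit recovered 22% of 50 changes of 0.5, 82% of 1 and 100% of 2, with 4.46% false among those called.

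Alternatives were the pseudocount, the filter, the scaling, the groups in the fit, the intensity trend, weights by tissue, an index block and leaving out each library. Leaving out both libraries high in choroid plexus genes and the high-fat diet values were added after seeing the data.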

Additional observations from a re-analysis of the deposited data

Results flagged for a closer look

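The test for a single library far from the other 3 of its group (Dixon's test, critical value 0.829) was made for 384 groups of named genes with 4 libraries, and 27 passed. Chance alone passes about 1 in 20 groups.

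CC-IF liver 0 was low for Ccrn4l at 17.3 FPKM, where the others had 29.5 to 29.8 FPKM. CC-IF liver 1 was high for Gsr at 38.2 FPKM, where the others had 33.9 to 34.5 FPKM, Atp5e at 436 FPKM, where the others had 336 to 346 FPKM, and Acaa1a at 173 FPKM, where the others had 150 to 153 FPKM. CC-IF liver 1 was low for Map1lc3a at 59.3 FPKM, where the others had 65.1 to 66.2 FPKM, and Ogn at 1.11 FPKM, where the others had 1.59 to 1.63 FPKM. CC-IF liver 2 was high for Atg16l2 at 4.96 FPKM, where the others had 4.04 to 4.12 FPKM. CC-IF liver 2 was low for Mt2 at 24.4 FPKM, where the others had 35.5 to 37 FPKM, and Rps14 at 405 FPKM, where the others had 442 to 447 FPKM. CC-IF liver 3 was high for Eif3j1 at 17.5 FPKM, where the others had 0.0941 to 3.03 FPKM, and Cdkn1a at 4.23 FPKM, where the others had 2.11 to 2.37 FPKM. CC liver 0 was high for Adamtsl4 at 2.06 FPKM, where the others had 1.35 to 1.47 FPKM. CC liver 0 was low for Map1lc3a at 39.8 FPKM, where the others had 45.1 to 46.1 FPKM. CC liver 2 was high for Tspan4 at 21 FPKM, where the others had 14.8 to 15.8 FPKM. CC liver 3 was high for Eif3j2 at 19.6 FPKM, where the others had 0.0262 to 0.0524 FPKM, and Acaa1a at 80.4 FPKM, where the others had 49.0 to 52.6 FPKM. CC liver 3 was low for Mars at 26.4 FPKM, where the others had 30 to 30.5 FPKM, and Tars at 83.2 FPKM, where the others had 112 to 113 FPKM. CC hippocampus 0 was high for Atp5e at 133 FPKM, where the others had 126 to 127 FPKM. CC hippocampus 1 was low for Dbp at 9.57 FPKM, where the others had 11.4 to 11.6 FPKM. CC hippocampus 2 was high for Slc16a6 at 3.3 FPKM, where the others had 2.77 to 2.84 FPKM. CC hippocampus 2 was low for Nampt at 7.73 FPKM, where the others had 11.5 to 12.1 FPKM, Nmrk1 at 1.49 FPKM, where the others had 2.06 to 2.16 FPKM, Clock at 9.76 FPKM, where the others had 12 to 12.4 FPKM, and Leo1 at 8.54 FPKM, where the others had 9.83 to 9.95 FPKM. CC hippocampus 3 was high for Tef at 59.3 FPKM, where the others had 52.6 to 53.7 FPKM. CC hippocampus 3 was low for Atf5 at 8.41 FPKM, where the others had 9.82 to 10 FPKM.

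In liver, the values of Eif3j1 and Eif3j2 belong to near-identical copies whose sum overlapped between the groups. CC hippocampus 2, which holds 5 of the 27, is also the CC hippocampus with the highest level of choroid plexus genes, and the part of that tissue in these values was not tested.

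The liver and hippocampal changes differed for 1538 genes in the interaction test. Among the genes of opposite sign the interaction was 1.60 for Ak4, -0.73 for Gsr, 1.2 for Coa6, 1.43 for Aqp4, 0.84 for Adamtsl4 and 0.78 for Tspan31. All 6 passed the threshold in limma. They were picked for small p-values of opposite sign in these same libraries, so their interaction calls follow from that choice and add no support.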

How the results depend on the processing

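The number of genes called in hippocampus was 4 and became 2 with no filter beyond a mean above 0, with a mean of at least 5 FPKM, with all 8 groups in the fit and with the replicate block (index across groups). Leaving out 1 library at a time gave 1 to 8. Genes called with the same sign in each tissue were 3, and became 0 with no filter, 1 with a mean of at least 5 FPKM, 1 with all 8 groups and 1 without both libraries high in choroid plexus genes (0 to 3 leaving out 1 library). The cause was not tested. With the unadjusted hippocampal p, opposite-sign genes numbered 154 without both choroid-high libraries, and 58 to 208 leaving out 1 library, against 112 to 241 of the same sign. The interaction count ran between 1054 and 1826, the liver count between 1745 and 2590, the count for the average change between 1250 and 2046 (1727 in full), the count of list members between 182 and 256 and the count of opposite signs adjusted in each tissue between 0 and 0 leaving out 1 library. The replicate block gave 1300 interaction genes with the index across groups and 1097 with the index as an animal; among lists, the index block left 2 of 24 growth genes and 0 of 10 interferon genes called in the interaction, and the animal block 12 of 38 urea cycle and amino acid genes, 2 of 26 ATF4 genes, 3 of 39 insulin genes and 3 of 71 oxidative phosphorylation genes. Among called values of the named genes, 0 changed sign under any alternative run. Interaction calls of Ly6e and Per1 were lost with all 8 groups in the fit (adjusted p = 0.153 and 0.0675), and that of Plin4 was gained with a pseudocount of 5 (adjusted p = 0.0472). FPKM without counts gives no counting error, and the 3 CC-IF hippocampi limit the precision of every hippocampal value.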
